A study of Mus musculus with 4 samples.

Results

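Wnt signalling genes of the late embryonic mouse cortex are described here through 10 members: the secreted antagonists Sfrp1, Sfrp2 and Dkk3, the feedback genes Axin2, Znrf3 and Rnf43, the receptor Fzd8, the ligands Wnt7a and Wnt7b, and the nuclear factor Tcf7l2. Each was found by its symbol among the 19938 genes with a single symbol on the array, and each has 1 feature there. RNA came from dorsal cortex of E18.5 embryos, shortly before birth, on 2 arrays of mutants and 2 of controls. Mutants carried floxed Mek1 on both alleles (Mek1fl/fl), no Mek2 (Mek2-/-) and NestinCre, a Cre recombinase transgene active in neural progenitors and hence in the neurons and glia they form. By their genotype labels, controls carried floxed Mek1 on a single allele (Mek1fl/wt) and likewise lacked Mek2 (Mek2-/-). The submitters' design text calls them WT (wild type), and the labels were followed here. On that reading both groups are without Mek2 and the contrast concerns Mek1. NestinCre is named for the mutants only, and its own effect cannot be told apart from that of losing Mek1. Read by the labels, the comparison addresses which transcripts depend on MEK1, the kinase that activates ERK1 and ERK2, once MEK2 is gone.

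Secreted Wnt proteins bind Frizzled receptors and LRP co-receptors, which spares beta-catenin from a destruction complex built on Axin and Apc, and beta-catenin then acts with TCF/LEF factors on target genes. SFRP proteins bind Wnts outside the cell, and the membrane ubiquitin ligases ZNRF3 and RNF43 clear Frizzled from the surface. R-spondins, through LGR receptors, hold these ligases back. In the developing cortex the pathway is known for the growth and patterning of progenitors, and WNT7A and WNT7B from neural cells for guiding brain vessels.

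Values are log2 expression made by the authors with RMA, a method that corrects background, equalises the arrays' distributions and gives 1 value per feature. Differences are mutant minus control on that scale with limma's moderated standard error (SE), and calls were made at an adjusted p under 0.05, Benjamini-Hochberg over the 13956 genes bright enough to be tested (mean of at least 6.16). The labels name no litter or batch and do not say whether a group's arrays are separate embryos, so p-values measure the spread between these samples. Xist, expressed from the inactive X of female cells, read 4.81 and 11.89 in mutants 1 and 2, and at 11.90 and 5.35 in controls 1 and 2, so each group held a male and a female sample and hence separate embryos. Markers of cortical projection neurons had slightly higher means in mutants for all 7 tested, and none was called. For 5 of the 7 (71.4%) mutants lay above controls without overlap, against 22.8% of all genes tested. Their summed level (log2 of the summed linear values) was 14.19 and 14.10 in mutants and 14.05 and 14.02 in controls. Map2k1 (Mek1) did not pass the test (difference -0.19 ± 0.09 SE, limma adjusted p = 0.469), nor did Map2k2 (Mek2), which still had a signal in both groups (0.08 ± 0.07 SE, limma adjusted p = 0.657). Which exons the probes cover is not known here, so neither value checks the deletion.

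None of the 10 Wnt genes passed the test. In limma 0 were called lower and 0 higher, where 1.01% of all genes tested were called lower and 0.0143% higher. Sfrp1 and Znrf3 came closest, both lower in mutants. At an unadjusted p under 0.05 stood 4 of the 10: Sfrp1, Znrf3 and Tcf7l2 with lower means and Sfrp2 with a higher one, against 7.69% of all genes tested with a lower and 5.73% with a higher mean. The groups did not overlap for 8 of the 10, with mutants below controls for 6 and above for 2, against 21.4% and 22.8% of all genes tested. A difference larger than the wider of both within-group gaps was found for 4 (Sfrp1, Sfrp2, Znrf3 and Wnt7b), against 32.0% of all genes tested. The median difference of the 10 was -0.15, against 0.01 for all genes tested. With 2 arrays a group, an exact permutation test of a single gene cannot give a two-sided p below 0.333, so the p-values rest on the spread that limma shares over genes.

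**Figure D1:**
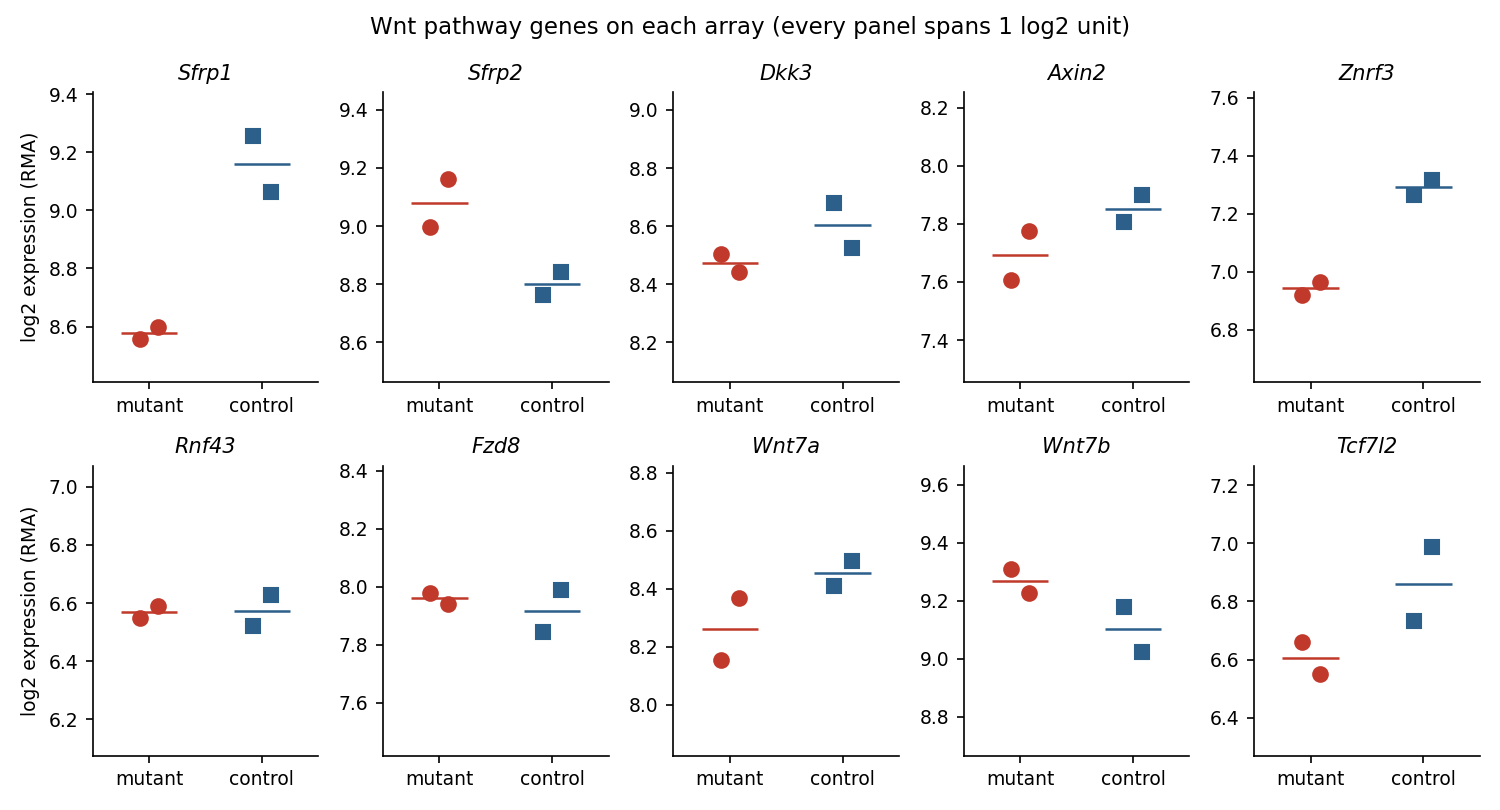
Log2 expression of the 10 Wnt pathway genes on each array, mutants as circles on the left and controls as squares on the right of each panel, with a line at each group mean (n = 2 each). Every panel spans 1 log2 unit; Sfrp1 and Znrf3 lie lower in both mutants, Sfrp2 and Wnt7b higher, and Rnf43 and Fzd8 overlap.

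The differences of the secreted antagonists had different signs, and none passed the test. Sfrp1, a Wnt-binding protein with a Frizzled-like cysteine-rich domain, was at 8.56 and 8.60 in mutants, against 9.26 and 9.06 in controls. Both mutants lay below both controls, and the gap between the controls was 0.19. The mean was 8.58 ± 0.03 in mutants and 9.16 ± 0.14 in controls (SD, n = 2 each), a difference of -0.58 ± 0.08 (SE), or 1.5-fold lower, with a 95% interval from -0.79 to -0.38. The limma adjusted p was 0.0546, just over the threshold, and 1.32% of the genes tested had a lower difference.

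Sfrp2, a close relative of Sfrp1, stood on the other side. It was at 8.996 and 9.16 in mutants, against 8.76 and 8.84 in controls. Both mutants were above both controls, with the higher value in mutant 2. The difference of 0.28 ± 0.08 (SE; 95% interval 0.08 to 0.47), 1.21-fold higher, did not pass (limma adjusted p = 0.233). Of the 10 genes it had the largest positive difference. Dkk3, a divergent member of the Dickkopf family, was at 8.50 and 8.44 in mutants, against 8.68 and 8.52 in controls. The mutants were lower without overlap, but the difference (-0.13 ± 0.07 SE, limma adjusted p = 0.534) was smaller than the gap of 0.16 between the controls.

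Among the feedback genes the paralogous ligases Znrf3 and Rnf43 had unlike values. Znrf3 was at 6.92 and 6.96 in mutants, against 7.26 and 7.32 in controls. The arrays of each group agreed to 0.054 or less, and the groups were apart by several times that. The difference was -0.35 ± 0.06 (SE; 95% interval -0.49 to -0.20), 1.27-fold lower, and did not pass (limma adjusted p = 0.0797). Rnf43 was at 6.55 and 6.59 in mutants, against 6.52 and 6.63 in controls. Its groups overlapped, with a difference of -0.0044 ± 0.06 (SE; 95% interval -0.17 to 0.16, limma adjusted p = 0.988). Whether the differences of Znrf3 and Rnf43 differ from each other was not tested.

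Axin2, the inducible scaffold of the destruction complex and a common readout of beta-catenin activity, was at 7.61 and 7.77 in mutants, against 7.81 and 7.90 in controls. Mutant 1 was the lowest array, and mutant 2 lay just under control 1. The difference of -0.16 ± 0.08 (SE; 95% interval -0.36 to 0.04) did not pass (limma adjusted p = 0.465) and was about the size of the gap between the mutants (0.17).

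**Figure D2:**
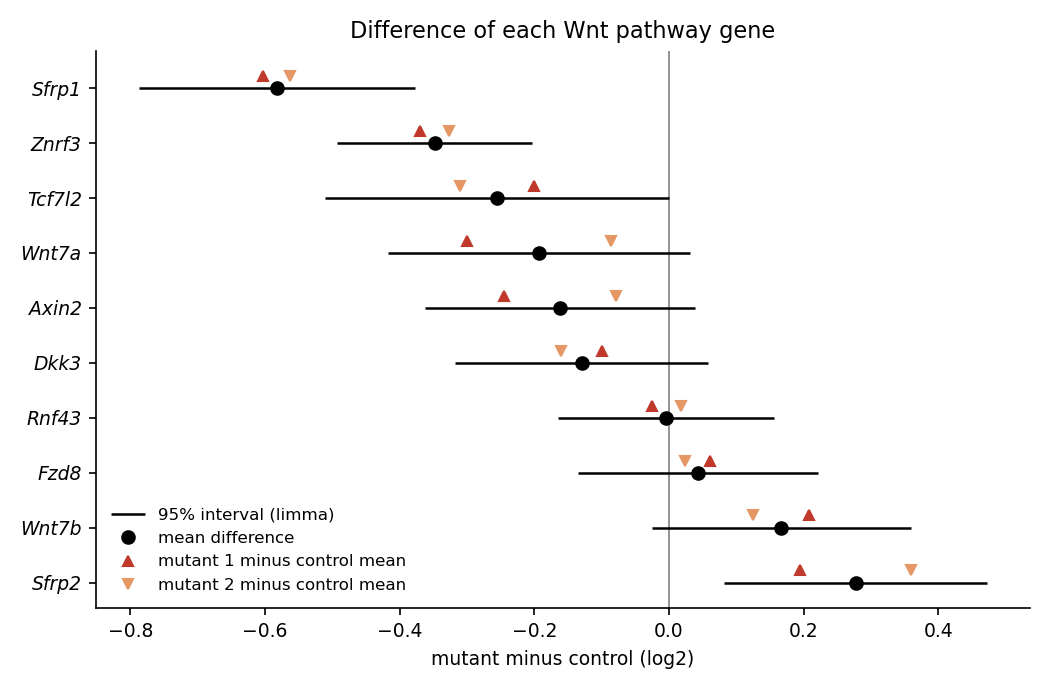
Mutant minus control difference (log2) of each Wnt pathway gene, ordered from Sfrp1 (-0.58) to Sfrp2 (0.28); black points are mean differences, lines 95% intervals from limma, and triangles each mutant minus the control mean. The intervals of Sfrp1, Znrf3, Tcf7l2 and Sfrp2 do not reach 0, and none of the 10 genes passed after adjustment.

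The ligands Wnt7a and Wnt7b, which are known to overlap in their action on brain endothelium, pointed opposite ways. Wnt7a was at 8.15 and 8.37 in mutants, against 8.41 and 8.50 in controls. Mutant 1 was 0.30 under the control mean and mutant 2 only 0.09 under it. The difference was -0.19 ± 0.09 (SE; 95% interval -0.42 to 0.03) and did not pass (limma adjusted p = 0.439). Wnt7b was at 9.31 and 9.23 in mutants, against 9.18 and 9.02 in controls. Both mutants were above both controls, by a narrow margin over control 1. The difference was 0.17 ± 0.08 (SE; 95% interval -0.03 to 0.36), and it did not pass either (limma adjusted p = 0.435). The contrast between the ligands was not tested.

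Wnt7a and Axin2 were lower mainly in mutant 1, the array that also lay farther from the controls over all genes tested (0.213 from their mean as a root mean square over genes, against 0.169 for mutant 2). Several marker lists were lower in mutant 1 than in mutant 2, given here as medians relative to the control mean. The astrocyte list was at -1.25 in mutant 1 and -0.51 in mutant 2, the hippocampus and cortical hem list at -0.70 and -0.09, and the intermediate progenitor list at -0.31 and -0.10. The thalamus list was at -0.22 in mutant 1 and 0.07 in mutant 2, the interneuron list at -0.20 and -0.0018, and the endothelial list at -0.16 and 0.09. Radial glia were at -0.50 and -0.37, dividing cells at -1.04 and -0.92, microglia at -0.35 and -0.20 and pericytes at 0.05 and 0.21. Other lists had higher medians in mutant 1 than in mutant 2: oligodendrocyte precursors at -1.23 and -1.43, choroid plexus at -0.05 and -0.19. So had projection neurons at 0.15 and 0.08, striatum at 0.09 and 0.04 and meninges at 0.04 and 0.03. By summed level, choroid plexus (8.67 and 8.80 in mutants 1 and 2) and meninges (9.89 and 10.04) were lower in mutant 1. Oligodendrocyte precursors were level (9.001 and 8.9997), and projection neurons and striatum were again higher in mutant 1. The part of any list in the values of Wnt7a and Axin2 was not tested. Without mutant 1 the difference was -0.09 for Wnt7a and -0.08 for Axin2, against -0.30 and -0.24 without mutant 2 (limma adjusted p from 0.0738 to 0.697 in these fits).

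The receptor Fzd8 was at 7.98 and 7.94 in mutants, against 7.85 and 7.99 in controls, and the groups overlapped (difference 0.04 ± 0.07 SE; 95% interval -0.14 to 0.22, limma adjusted p = 0.863). The co-receptors that WNT7 proteins use on endothelium, Reck and Adgra2, had differences of -0.02 and 0.01, and both were among the overlapping genes. Of the 9 endothelial markers none was called, and their summed level was 11.62 and 11.89 in mutants and 11.79 and 11.80 in controls.

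Tcf7l2, a TCF/LEF factor known from thalamic neurons, oligodendrocyte lineage cells and vessels, was at 6.66 and 6.55 in mutants, against 6.73 and 6.99 in controls. The mutants were lower, but control 1 lay near mutant 1 and control 2 stood above the rest. The difference of -0.26 ± 0.10 (SE; limma adjusted p = 0.372) was as large as the gap between the controls (0.26). Without control 2 it was -0.13, and without control 1 it was -0.38, so the value depends on which control is kept. Ttr, the choroid plexus transthyretin, was also highest in control 2, at 9.15, against 6.50 and 7.17 in mutants and 6.67 in control 1. The summed level of the choroid plexus list was 8.67 and 8.80 in mutants, and 8.67 and 9.80 in controls 1 and 2. Ttr had the largest rise on the list, with Folr1 at 6.32 and 6.31, Kl at 5.86 and 5.85 and Aqp1 at 6.56 and 6.64 in controls 1 and 2. Otx2 (5.52 and 5.72) and Clic6 (4.82 and 5.14) were also higher in control 2, and like Kl were too dim to be tested. None of the 3 genes tested on the list (Ttr, Folr1 and Aqp1) was called. Markers of oligodendrocyte precursors had lower means in mutants for 5 of 6, with 3 of 6 called lower, and Cspg4 (0.01) overlapped. Their summed level was 9.001 and 8.9997 in mutants, against 10.50 and 10.49 in controls. The summed level of the thalamus list was 10.32 and 10.76 in mutants 1 and 2, against 10.62 and 10.78 in controls, with none of 4 called. It was lowest in mutant 1, whereas Tcf7l2 was lowest in mutant 2. The part of these lists in the values of Tcf7l2 was not tested.

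Promoter sequences (250 bases before to 50 bases after the gene start, from RefSeq, build GRCm38.p6) were at hand for 5 of the 10 genes: Sfrp2, Axin2, Rnf43, Wnt7a and Tcf7l2. They were searched on both strands for the TCF/LEF motifs CTTTGAT and CTTTGTT and for the ETS motifs CCGGAAG and AGGAAGT, a family some members of which ERK phosphorylates. The motifs do not overlap each other in these sequences. Shown are the promoters of Sfrp2, the gene with the highest difference, of Axin2, the beta-catenin readout, and of Tcf7l2 at the second of its listed starts, the only one of the 7 member promoters with a TCF/LEF match, which is in capitals. They lie at chr3:83766071-83766370, plus strand, chr11:108920099-108920398, plus strand, and chr19:55895071-55895370, plus strand.
Sfrp2: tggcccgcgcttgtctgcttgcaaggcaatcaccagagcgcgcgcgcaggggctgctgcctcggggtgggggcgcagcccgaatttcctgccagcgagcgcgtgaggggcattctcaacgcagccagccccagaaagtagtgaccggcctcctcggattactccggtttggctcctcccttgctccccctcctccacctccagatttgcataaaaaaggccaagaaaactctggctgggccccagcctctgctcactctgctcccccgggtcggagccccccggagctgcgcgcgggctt
Axin2: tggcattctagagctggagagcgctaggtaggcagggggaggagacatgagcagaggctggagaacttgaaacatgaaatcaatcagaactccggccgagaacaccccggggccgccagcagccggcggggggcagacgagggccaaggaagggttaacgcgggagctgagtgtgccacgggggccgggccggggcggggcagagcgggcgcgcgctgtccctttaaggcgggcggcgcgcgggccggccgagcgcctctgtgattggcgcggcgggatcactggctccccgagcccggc
Tcf7l2 (second start): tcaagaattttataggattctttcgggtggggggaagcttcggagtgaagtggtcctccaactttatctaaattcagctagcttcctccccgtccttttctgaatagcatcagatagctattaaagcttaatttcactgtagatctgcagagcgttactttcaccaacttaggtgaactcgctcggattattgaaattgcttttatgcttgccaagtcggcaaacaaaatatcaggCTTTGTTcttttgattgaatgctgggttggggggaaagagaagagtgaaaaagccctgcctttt
The match in Tcf7l2 is CTTTGTT on the plus strand, 14 bases before the start. Of all 32851 promoters of this length, 9.33% hold either TCF/LEF motif and 17.3% either ETS motif. An ETS match (CCGGAAG, on the minus strand) was present at the second start of Rnf43, the gene with the smallest difference. Neither the Sfrp2 nor the Axin2 sequence shown holds any of the 4 motifs. They are rich in G and C, at 66.0% for Sfrp2 and 70.0% for Axin2, against a median of 52.7% over all promoters, and the second Tcf7l2 start is at 42.0%.

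The wider Wnt pathway, a list of 99 further genes in 9 roles, was read out in the same fit. Of these, 98 were found on the array, 14 were too dim to be tested and 84 were tested. In limma 0 were called lower and 0 higher (5 lower and 5 higher at an unadjusted p under 0.05, each 5.95% of the 84, against 7.69% and 5.73% of all genes tested). Mutants lay below controls without overlap for 12 and above for 20, or 14.3% and 23.8% of the 84, against 21.4% and 22.8% of all genes tested. The median difference was 0.0021.

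**Figure D3:**
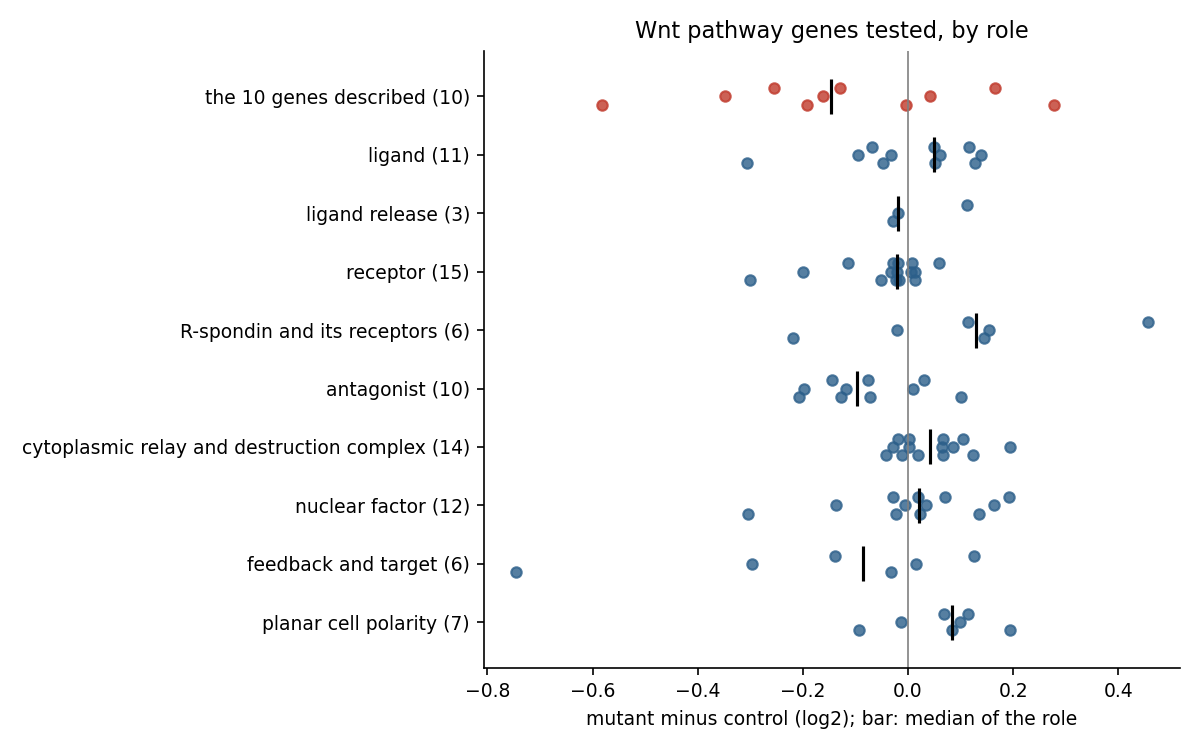
Mutant minus control differences (log2) of the 94 Wnt pathway genes tested, with the 10 genes described above in the top row and the further genes by role below, the number tested in brackets; points are genes and bars medians. The lowest point is Ccnd1 (-0.75), in the feedback and target row, and the highest is Rspo2 (0.46).

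The R-spondins, which sustain Frizzled on the surface by way of ZNRF3 and RNF43, gave some of the larger differences outside the 10 genes. Rspo2 was at 8.59 and 8.50 in mutants, against 8.19 and 7.99 in controls. It was higher in both mutants (0.46 ± 0.09 SE, limma adjusted p = 0.113). Rspo3 was lower without overlap (-0.22 ± 0.07 SE, limma adjusted p = 0.260), and Rspo1 higher (0.16 ± 0.05 SE, limma adjusted p = 0.320). None of the 6 R-spondin and LGR genes tested passed.

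Among the 6 feedback and target genes tested none passed. Ccnd1, the cyclin D1 gene, which ERK signalling is also known to induce, was at 7.94 and 8.26 in mutants, against 8.91 and 8.78 in controls. Both mutants were well below both controls (-0.75 ± 0.12 SE, limma adjusted p = 0.0790). Tnfrsf19, the orphan receptor TROY and a beta-catenin target, differed by -0.30 ± 0.06 (SE, limma adjusted p = 0.136), and Bambi, a pseudoreceptor for TGF-beta signals, by -0.14 ± 0.06 (SE, limma adjusted p = 0.411).

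Among 15 receptors and co-receptors, Fzd2 was at 7.98 and 8.05 in mutants, against 8.31 and 8.32 in controls. Its groups were apart by more than either gap (-0.30 ± 0.06 SE, limma adjusted p = 0.115). The co-receptor Lrp5 differed by -0.11 ± 0.07 (SE, limma adjusted p = 0.575) and Fzd7 by -0.20 ± 0.21 (SE, limma adjusted p = 0.758), with Fzd7 at 7.41 and 8.04 in the mutants. The other 12 had differences of at most 0.06 in size, and the median of the role was -0.02.

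Nuclear factors (12 tested, median 0.02) included Lef1, a TCF/LEF factor and Wnt target, at 6.88 and 7.09 in mutants, against 7.15 and 7.43 in controls. It was lower in both mutants, by little against control 1 (-0.31 ± 0.12 SE, limma adjusted p = 0.373). The Groucho co-repressor genes Tle3 (0.19 ± 0.06 SE, limma adjusted p = 0.287) and Tle1 (-0.14 ± 0.06 SE, limma adjusted p = 0.413) had opposite signs. The 14 genes of the cytoplasmic relay and destruction complex lay between -0.04 and 0.19. Dvl1, a Dishevelled adaptor, had the smallest p of them (0.19 ± 0.07 SE, limma adjusted p = 0.317). Apc2, the neuronal relative of Apc, differed by 0.12 and Gsk3b, the kinase that marks beta-catenin for destruction, by 0.09.

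The other ligands (11 tested, median 0.05) had their smallest p in Wnt5a, which signals mainly without beta-catenin, at 7.79 and 8.15 in mutants, against 8.14 and 8.42 in controls. Its groups overlapped (-0.31 ± 0.15 SE, limma adjusted p = 0.462). Wnt6 differed by 0.13 and Wnt4 by 0.14 (limma adjusted p = 0.579 and 0.609). Of the ligand release genes, Wls, the carrier of Wnts to the surface, differed by 0.11, Notum, an enzyme that strips the Wnt lipid, by -0.03, and Porcn, the enzyme that adds it, by -0.02. The 10 other antagonists tested had a median of -0.10, with the Dickkopf-like gene Dkkl1 at -0.21, Apcdd1, a membrane inhibitor, at -0.20 and Sost, sclerostin, at 0.10 (limma adjusted p from 0.498 to 0.604). Planar polarity genes (7 tested, median 0.08) included Prickle1 at 0.19, Celsr3 at 0.11 and Vangl1 at -0.09 (limma adjusted p from 0.276 to 0.541).

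Like the lower Wnt genes, most markers of radial glia, dividing cells and astrocytes had lower means in mutants. Radial glia genes had lower means without overlap for 11 of 11, 4 of them called lower, with a summed level of 13.29 and 13.49 in mutants, against 14.26 on both control arrays. Genes of dividing cells were called lower for 4 of 5, with a summed level of 9.98 and 10.15 in mutants, against 11.07 and 10.95 in controls. Astrocyte genes were called lower for 4 of 8, with a summed level of 11.40 and 11.72 in mutants, against 12.68 and 12.69 in controls. Among them Gfap (0.04) overlapped. The intermediate progenitor list had a median of -0.22 with none of 4 called, and its gene Neurog2 (-0.01) overlapped. The part of these lists in the differences of Sfrp1, Znrf3 and Ccnd1 was not tested. In bulk tissue fewer cells of a type and less RNA per cell cannot be told apart. For the genes with higher means, the projection neuron list had a median of 0.10 with none of 7 called. The striatum list had a median of 0.10 with none of 6 called, and the pericyte list 0.13 with none of 4 called. In the pericyte list Abcc9 (0.27) and Kcnj8 (0.23) were higher without overlap, while Rgs5 (0.03) and Pdgfrb (-0.07) overlapped. Of all genes tested, 22.8% lay above controls without overlap. The meningeal list had a median of 0.03 and none of 6 called.

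**Figure D4:**
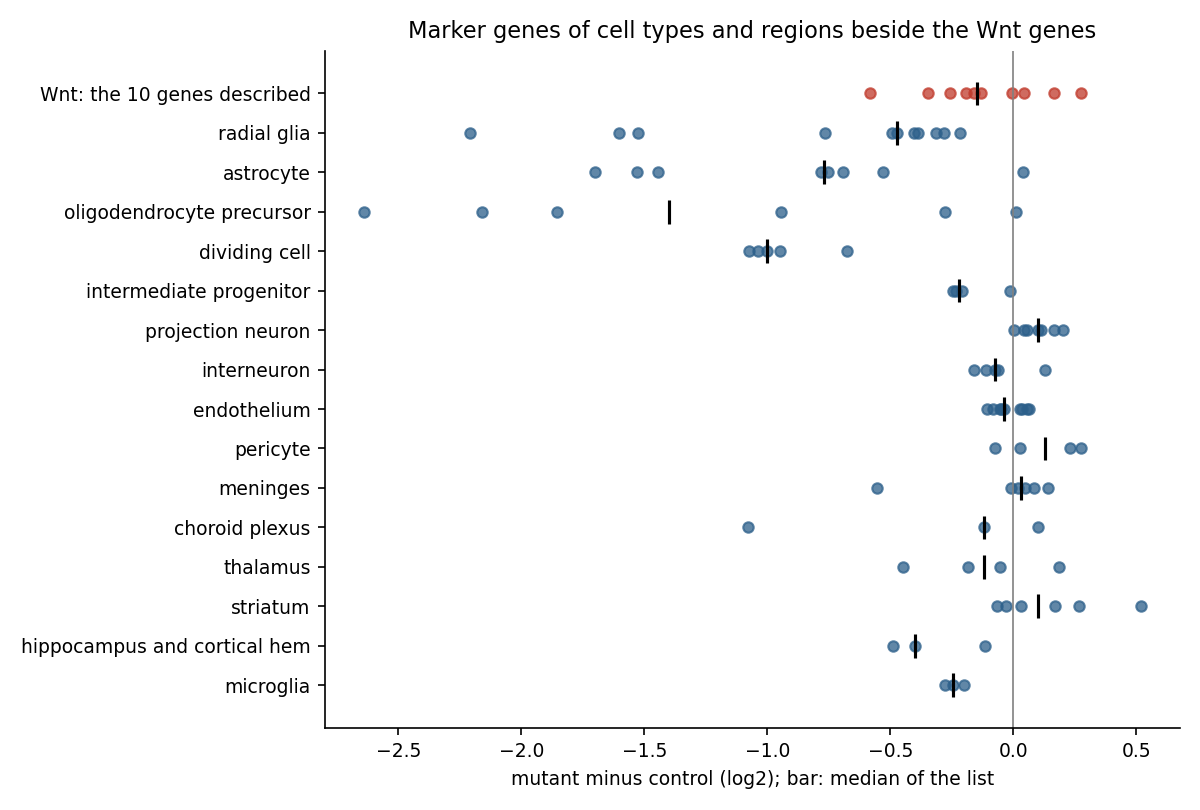
Mutant minus control differences (log2) of tested marker genes of cell types and regions, with the 10 Wnt genes in the top row; points are genes and bars medians of the lists. The radial glia (median -0.47), astrocyte (-0.77), oligodendrocyte precursor (-1.40) and dividing cell (-1.002) lists lie lower in mutants than the Wnt genes (-0.15).

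The genes whose values over the 4 arrays were most like those of Sfrp1 and Sfrp2 were sought as a description. The measure was the Euclidean distance between deviations from each gene's mean, and predicted genes without an assigned name were left out. Nearest to Sfrp1 were H1f1, a linker histone (distance 0.052), Ube2c, a ubiquitin-conjugating enzyme of mitosis (0.063), Spry4, a feedback inhibitor of ERK signalling (0.064), and Ugt8a, an enzyme of myelin lipid synthesis (0.072). These 4 were picked for values like those of Sfrp1, so their differences (-0.51 to -0.60) are close to its own by selection. None was called. Nearest to Sfrp2 were Sv2b, a synaptic vesicle protein (0.023), Gng4, a G protein subunit (0.029), Ifi30, a lysosomal thiol reductase (0.039), and Fkbp1b, an immunophilin (0.043). Picked in the same way, they differed by 0.26 to 0.28, and none was called. With 4 arrays, many genes can share a profile.

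The calls depended on single arrays. The difference of Sfrp1 was -0.56 without mutant 1, -0.60 without mutant 2, -0.49 without control 1 and -0.68 without control 2. Sfrp1 passed without either mutant and did not pass without either control. With a control left out, the residual spread comes from the mutants alone, and fewer genes passed than with all 4 arrays. The mutants lay farther apart over all genes tested (root mean square 0.191, against 0.149 for the controls). Not passing there therefore cannot show that the difference of Sfrp1 rests on a control. With a mutant left out, the fit takes its residual spread from the controls alone, and more genes passed overall: 1.65% of all genes tested were called lower without mutant 1, and 5.24% lower and 1.07% higher without mutant 2. Znrf3 passed without mutant 2 only (-0.37, limma adjusted p = 0.0334), and its difference lay between -0.38 and -0.32 over the 4 fits. The other 8 genes passed in none of these fits. Dkk3 had differences from -0.21 without control 2 to -0.05 without control 1, Wnt7b from 0.09 to 0.24, and Sfrp2 from 0.19 to 0.36. Rnf43 and Fzd8 changed sign with the array left out. Of the wider list, Ccnd1 passed without either mutant (-0.58 and -0.91, limma adjusted p = 0.0271 and 0.00313), and Rspo2, Fzd2, Fzd7 and Tnfrsf19 without mutant 2 but in no other of these 4 fits. Without mutant 2, 4 of the 84 were thus called lower and 1 higher, or 4.76% and 1.19%, near the shares over all genes.

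**Figure D5:**
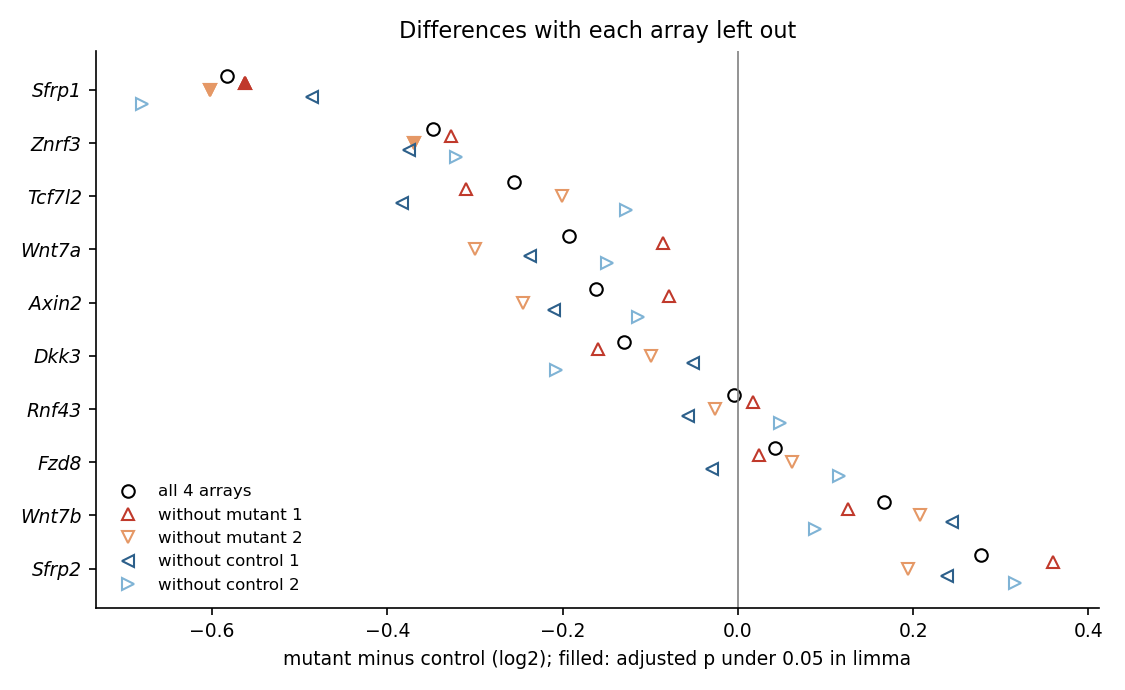
Mutant minus control difference (log2) of each Wnt pathway gene with all 4 arrays and with each array left out in turn; filled symbols passed in limma (adjusted p under 0.05) and open symbols did not. Sfrp1 is filled without either mutant and Znrf3 without mutant 2, and only Rnf43 and Fzd8 have points on both sides of 0.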

How the data were processed

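Log2 expression values were deposited by the authors for 4 single-colour arrays (35557 features each, medians from 7.11 to 7.13); they were made with RMA, per the submitters' processing notes. The log base was read from the values; the RMA version, the software and the genome build are not given. Scanner intensities were not used here, which leaves no detection limit, and 2 arrays a group limit the precision. A shift common to most genes is removed by RMA, and differences of dim genes are compressed.

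Features were named by the platform annotation and updated by Entrez identifier (21698 of 21789 features with 1 symbol matched RefSeq, GRCm38.p6). The brightest feature of each gene was kept (19938 genes), genes under the 30th percentile of gene means (6.16) were left out, and 13956 genes were fitted with limma 3.58.1 in R 4.3.3 (no trend, no covariate, 2 residual and 3.31 prior degrees of freedom), with Benjamini-Hochberg adjustment over all of them. The fit was tested on simulated data. Members, lists and tests were chosen with earlier results of these data known. Named genes are the 10 members, any called gene of the wider list, the 3 with the smallest p in each role, the targeted genes and Xist. Also named are the 4 nearest profiles of the members with the lowest and highest difference, with predicted genes left out. Others (Reck, Adgra2, Ttr and the other markers named) were chosen after their values were seen. Alternatives were other filters, features, moderation, normalization, covariates and each array left out. No coordinates are given for array features, since their build is not given.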

Additional observations from a re-analysis of the deposited data

How the results depend on the processing

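At the 50th percentile filter Sfrp1 was the 1 Wnt gene called, lower, among the 7 of the 10 tested (limma adjusted p = 0.0379). There 130 of all 9969 genes tested were called lower, and Znrf3, Rnf43 and Tcf7l2 were left out as too dim. With trend and robust moderation Sfrp1 was the 1 of 10 called, lower (limma adjusted p = 0.0128). In that fit 268 of all 13956 genes tested were called lower. Of the 10, 0 to 2 were called lower with an array left out. Over its 14 alternatives the adjusted p of Sfrp1 ran from 0.0128 to 0.352, and that of Znrf3, over 13, from 0.0334 to 0.50. No gene of the 10 was called higher in any alternative. The sign of 8 genes held under each alternative in which they were tested (13 for Znrf3 and Tcf7l2, 14 for the other 6); Rnf43 was at 0.0078 with arrays centred on their medians and from -0.056 to 0.048 with an array left out, and Fzd8 from -0.030 to 0.115 with an array left out. In the wider list 1 gene was called lower and 1 higher with trend and robust moderation (Ccnd1 and Rspo2), and 0 to 4 lower and 0 to 1 higher with an array left out. Over all genes 141 were called lower and 2 higher. Lower and higher calls were 15 and 0 without the filter, 0 and 0 with every feature tested, 268 and 33 with trend and robust moderation, and 17 and 0 with embryo sex as a covariate. Higher calls were 11 at the 50th percentile filter and 4 with centred arrays. With an array left out they ran from 9 to 731 lower and from 0 to 150 higher; the cause of these shifts was not tested. Deviations of same-numbered arrays from their group means had a correlation over genes of -0.16. Same-numbered samples were of opposite sex, and genes that differ by sex, such as Xist, lower this value. It therefore cannot decide whether the numbers pair the samples. The replicate block gave 113 lower and 3 higher calls, none among the Wnt genes. The crossed pairing, added after seeing the data and equal here to the sex covariate, gave 17 lower and 0 higher.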
